A study of Cavia porcellus with 30 samples.

Results

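The comparison set 5 male Hartley guinea pigs given a single intraperitoneal injection of the high dose of mercuric chloride (1.50 mg/kg) against 5 given the vehicle (saline), with kidneys taken 33 h later. These 10 animals, numbered 53 to 57 (high dose) and 43 to 47 (vehicle), were chosen by the dose and time in their sample labels from the 30 animals whose kidney RNA was sequenced. The other 20 received a low dose (1.00 mg/kg) and were sampled at 33 h, or received vehicle, the low dose or the high dose and were sampled at 9 h, 5 animals in each group. All animals, controls included, were bought young, carried a surgically placed jugular catheter and were fasted on the day the kidney was taken, so the vehicle animals are operated and fasted controls. Each library holds the poly-A RNA of powdered whole kidney, in which fewer cells of a type and less RNA per cell cannot be told apart.

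Inorganic mercury binds strongly to thiol groups of proteins and glutathione, and it accumulates in the kidney, chiefly in the cells of the proximal tubule. These cells reclaim most of the filtered salt, sugar, amino acids and protein, are rich in mitochondria, and express large amounts of transporter and enzyme mRNA. They are the main site of injury by mercuric chloride, and acute tubule injury is known for the loss of such mRNA and for a gain in stress, repair and inflammatory mRNA. The deposited values are given per Ensembl transcript and are not paired with gene symbols here, so transcripts are named by their identifiers, their functions are not given, and the kidney label was not checked with marker genes.

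The total of estimated counts per animal was 24599327 to 29941680 with the high dose (median 27236211) and 24018495 to 31801103 with vehicle (median 26265724). Log2 CPM (counts scaled by library total, on the log2 scale) correlated with Pearson's r of 0.953 to 0.957 between the high-dose animals, 0.951 to 0.958 between the vehicle animals and 0.911 to 0.933 across the groups. These r are across transcripts, which are not independent replicates. No animal of either group stood apart on this measure.

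At 33 h, the high dose was followed by higher levels of 4948 transcripts (25.1% of the 19729 tested) and lower levels of 4753 (24.1%), so 49.2% of all transcripts tested were called. Calls were made with edgeR's quasi-likelihood test on the 10 animals, at 0.1 or less after Benjamini-Hochberg correction. Most of these changes were small. The median log2 fold change was 0.46 among the rises and -0.50 among the falls, against -0.0028 over all transcripts tested, and 5742 of the 9701 calls (59.2%) were under 1.5-fold. Rises and falls were nearly balanced at each size of change. At least 2-fold changes were found for 1077 rises (5.46% of transcripts tested) and 1090 falls (5.52%), at least 4-fold for 348 rises (1.76%) and 319 falls (1.62%), and at least 8-fold for 175 rises (0.887%) and 145 falls (0.735%). The last counts depended on the filter, with 263 rises and 230 falls under no filter beyond 1 count and 100 rises under the default filter of Sleuth. For 6500 called transcripts (32.9% of those tested), the levels of the 5 high-dose animals did not overlap those of the 5 vehicle animals, 3550 of them higher (18.0%) and 2950 lower (15.0%) with the high dose. Scaling by RLE in place of TMM moved the share of calls that rose from 51.0% to 50.1%. Both scalings set the typical log2 fold change near 0, so a balance of rises and falls was favoured by the scaling. A net change in the amount of RNA cannot be seen in these data.

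**Figure D1:**
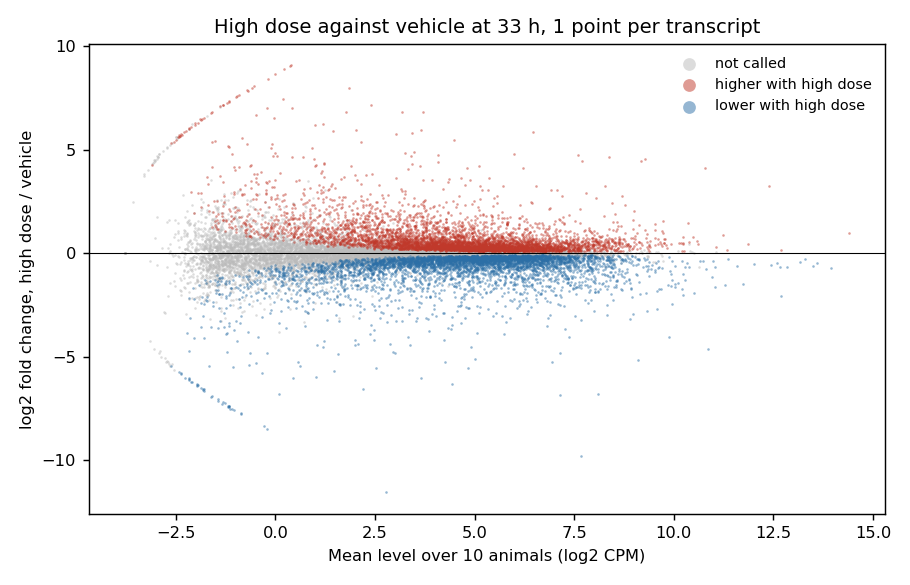
Each point is 1 of 19729 transcripts, placed by its mean level over the 10 animals (log2 CPM, horizontal) and its log2 fold change between high dose and vehicle (vertical), with called rises in red, called falls in blue and the rest in grey. The cloud is centred near 0, with called transcripts in both directions at every level. The curved lines of points at low levels are transcripts with 0 counts in all animals of one group, and the lowest point, ENSCPOT00000040781.1, had counts in vehicle animals 43 and 45 only.

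The called transcripts carried most of the counted RNA in both groups, and the high-dose kidneys had a different balance between them. Transcripts called as falls made up 51.0 ± 1.09% (SD, n = 5) of all counts with vehicle and 33.8 ± 1.58% (SD, n = 5) with the high dose, a loss of 17.2 percentage points. By animal, their share was 49.5, 51.3, 52.4, 51.5 and 50.5% in vehicle animals 43 to 47 and 34.2, 32.2, 33.5, 32.9 and 36.3% in high-dose animals 53 to 57. Transcripts called as rises went from 25.9 ± 0.692% to 41.6 ± 1.44% (SD, n = 5 each), a gain of 15.7 points, with 27.0, 25.7, 25.3, 25.5 and 26.2% in the vehicle animals and 42.0, 43.0, 41.6, 42.3 and 39.2% in the high-dose animals. The falls thus outweighed the rises in every vehicle animal, and the rises outweighed the falls in every high-dose animal. Transcripts that were tested and not called held 23.0% and 24.5% of counts, respectively. The same contrast chose the called transcripts, so these shares describe the size of the shift and were not tested.

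**Figure D2:**
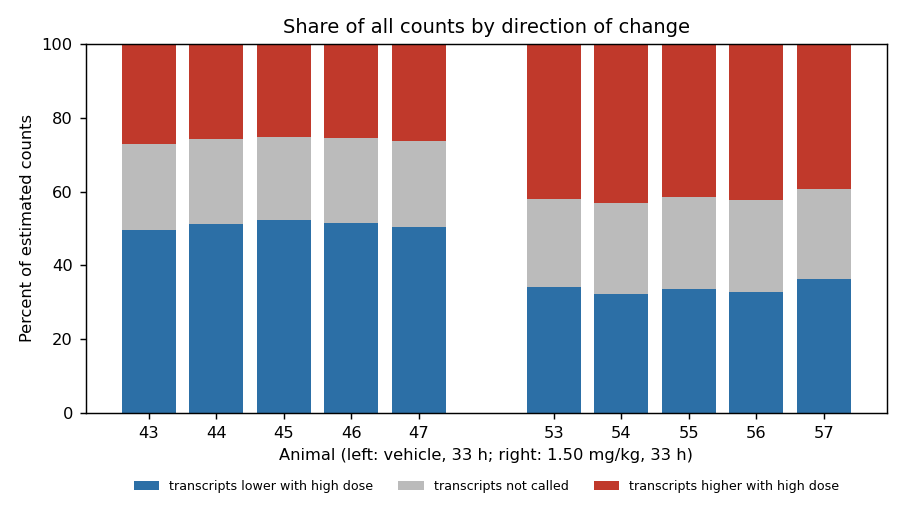
Stacked bars give, for each of the 10 animals, the percent of all estimated counts on transcripts called lower (blue), not called (grey) and called higher (red) with the high dose. The blue part is 49.5 to 52.4% in the vehicle animals and 32.2 to 36.3% in the high-dose animals.

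The loss was carried by fewer transcripts than the gain. Of the 4753 falls, the 77 with the largest losses made up 50% of the points lost, whereas 150 of the 4948 rises were needed for 50% of the points gained. The first 10 transcripts made up 21.9% of the loss and 23.2% of the gain, and the first 100 made up 54.2% and 44.7%. The first transcript made up 9.72% of the gain and 4.48% of the loss. The first of the gains, ENSCPOT00000025542.2, depended on single animals and on the controls, with 1.52 points in all animals, 1.01 points without high-dose animal 53, and a log2 fold change that turned to -0.33 with the 9 h vehicle animals added to the controls.

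**Figure D3:**
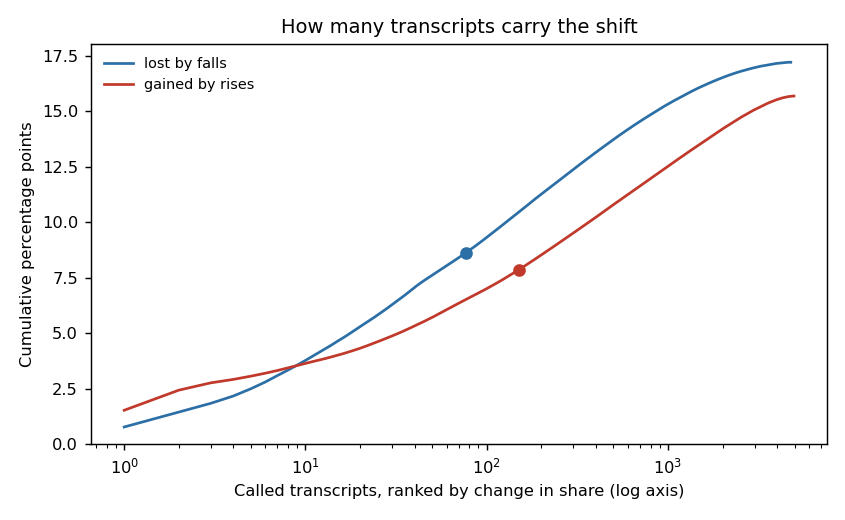
Lines give the percentage points of all counts lost by falls (blue) and gained by rises (red), summed over called transcripts ranked by their change in share (log axis), and the dots mark 50% of each total. The dot lies at 77 transcripts for the loss and at 150 for the gain.

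The largest loss of share was that of ENSCPOT00000015258.3. It held 1.10, 1.05, 1.18, 0.837 and 1.01% of all counts in vehicle animals 43 to 47 and 0.332, 0.187, 0.221, 0.219 and 0.358% in high-dose animals 53 to 57. The groups did not overlap, and the difference was -0.771 points (log2 fold change -2.07 with a standard error, SE, of 0.196 and an adjusted p = 1.3e-05 in edgeR). ENSCPOT00000017568.1 followed with a difference of -0.675 points, from 1.93, 1.92, 1.87, 1.91 and 1.90% to 1.23, 1.08, 1.21, 1.32 and 1.32%, a much smaller fold change (-0.73 on the log2 scale, SE 0.0548, adjusted p = 3.3e-06) on a larger share. The next differences were -0.390 points for ENSCPOT00000017575.1 (log2 fold change -0.60) and -0.331 points for ENSCPOT00000017587.1 (log2 fold change -0.49). The fifth, ENSCPOT00000047573.1, had a much deeper fall, from 0.363, 0.357, 0.401, 0.307 and 0.286% of counts in the vehicle animals to 0.0155, 0.00795, 0.0120, 0.0118 and 0.0262% in the high-dose animals. Its log2 fold change was -4.64 (SE 0.314, adjusted p = 1.8e-06 in edgeR). ENSCPOT00000006677.3 came sixth, with a difference of -0.303 points and a log2 fold change of -1.51 (adjusted p = 8.2e-05). Large losses of share thus came both from deep falls and from modest falls of transcripts with many counts. A share of counts grows with transcript length, so it ranks the counts and not the number of molecules.

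Of the 10 largest losses, 6 belonged to a run of 13 transcripts that stand at the head of every deposited table, with identifiers from ENSCPOT00000017558.1 to ENSCPOT00000017587.1. All 13 were called as falls, against 24.1% of all transcripts tested and 66 of the 100 most abundant in the 9 h vehicle animals, with log2 fold changes between -0.30 and -0.73 and a largest adjusted p of 0.0047 (edgeR's quasi-likelihood test). Together they held 10.4 ± 0.394% of counts with vehicle (SD, n = 5, range 9.83 to 10.9%) and 7.64 ± 0.509% with the high dose (SD, n = 5, range 6.96 to 8.24%). The difference of -2.79 points was 16.2% of the whole loss. This run was picked with its values in view.

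The largest gain was that of ENSCPOT00000025542.2, the transcript with the most counts in these animals. It held 1.37, 1.26, 1.94, 1.35 and 1.07% of counts in the vehicle animals and 4.97, 2.56, 1.81, 2.48 and 2.78% in the high-dose animals, and the groups overlapped, since vehicle animal 45 lay above high-dose animal 55. The gain was 1.52 points, and 1.01 points without high-dose animal 53. Its log2 fold change of 0.97 (SE 0.267, adjusted p = 0.013 in edgeR) turned to -0.33 (adjusted p = 0.71) when the 9 h vehicle animals, in which it held 1.58 to 13.7% of counts, were added to the controls. The second gain was steadier. ENSCPOT00000008570.3 held 0.111, 0.0902, 0.0840, 0.0974 and 0.119% of counts in the vehicle animals and 0.989, 1.06, 1.13, 1.10 and 0.751% in the high-dose animals, a gain of 0.905 points with no overlap (log2 fold change 3.22, SE 0.126, adjusted p = 7.5e-08). ENSCPOT00000019570.2, which the readable part of the study's supplement pairs with the guinea pig gene ENSCPOG00000019546 and the rat NCBI gene 24854, went from 0.0244, 0.0166, 0.0170, 0.0151 and 0.0217% to 0.326, 0.388, 0.326, 0.395 and 0.306%, a gain of 0.329 points. Its log2 fold change was 4.10 (SE 0.143, adjusted p = 5.7e-08 in edgeR), the largest rise among the 6 leading gains. The remaining 3 were ENSCPOT00000013600.3 (0.156 points, log2 fold change 0.86), ENSCPOT00000041535.1 (0.146 points, 0.46) and ENSCPOT00000032213.1 (0.132 points, 1.47). The high-dose and vehicle animals did not overlap in any of these 3.

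To look at abundant transcripts without choosing them on the animals compared, transcripts were ranked by their counts in the 5 vehicle animals of 9 h. The high-dose animals had less of their counts on the transcripts ranked first in this way. The ranking picks transcripts that are high in vehicle kidneys. A smaller share and more falls than rises were thus favoured in any group that departs from vehicle. The first 100 held 25.6 ± 0.790% of counts with vehicle at 33 h (range 24.5 to 26.7%) and 21.2 ± 1.63% with the high dose (range 19.8 to 23.8%), a difference of -4.44 points (SD, n = 5 each, p = 0.0079 from a two-sided exact permutation test, the smallest possible with these numbers, Benjamini-Hochberg corrected over 4 tests to 0.016). The first 1000 held 52.4 ± 0.819% and 47.5 ± 1.29%, a difference of -4.92 points (SD, n = 5 each, exact permutation p = 0.0079, adjusted 0.016). For the first 10, 11.5 ± 0.600% and 9.80 ± 1.62% overlapped, and the difference of -1.69 points missed 0.05 (SD, n = 5 each, exact permutation p = 0.079). The number of transcripts that made up 50% of counts was taken from each animal's own ranking. It was 851 ± 45.3 with vehicle and 968 ± 55.9 with the high dose (SD, n = 5 each, exact permutation p = 0.024, adjusted 0.032). This call was lost (adjusted p = 0.063, exact permutation test) when any one of vehicle animals 44, 45 and 46 or high-dose animals 54, 55, 56 and 57 was left out. These shares were of counts, which weight long transcripts. On the TPM scale, which divides by length, the first 100 and the first 1000 differed by -2.70 and -1.57 points (exact permutation test, adjusted p = 0.095 for each), and the number of transcripts for 50% differed by -1.20 (adjusted p = 0.94). Most of the abundant transcripts were called. Among the first 10 there were 1 rise and 9 falls, among the first 100 there were 19 rises and 66 falls (85% called, median log2 fold change -0.60), and among the first 1000 there were 282 rises and 549 falls (83.1% called, median log2 fold change -0.20), against 49.2% called and a median of -0.0028 over all transcripts tested.

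Changes differed by expression class. Classes were cut by the mean CPM over the 10 animals, which weights both groups alike. Below 1000 CPM, the median log2 fold change of every class lay between -0.03 and 0.00, whereas the 63 transcripts at 1000 CPM or more had a median of -0.38. Of these 63, 36 transcripts fell and 20 rose, and 14 of the falls but 3 of the rises were at least 2-fold. Between 100 and 1000 CPM, 759 of 1841 fell and 677 rose, with 184 falls and 70 rises of at least 2-fold. The direction was the other way in the low classes. Between 1 and 10 CPM, 1184 of 5720 rose and 1045 fell, with 480 rises and 356 falls of at least 2-fold, and below 1 CPM 234 of 2733 rose and 211 fell. The widest class, 10 to 100 CPM, held 2833 rises and 2702 falls among 9372 transcripts. Changes of at least 2-fold were thus more often rises below 10 CPM and more often falls above it, where the class at 10 to 100 CPM had 316 such rises and 355 such falls. These differences between classes were not tested. With classes cut by the 9 h vehicle animals, which are not in the comparison, the medians were 0.12 below 1 CPM, -0.12 at 100 to 1000 CPM and -0.60 at 1000 CPM or more. A cut by vehicle animals favours rises in the low classes and falls in the high ones. Below 1 CPM the median went the other way under other filters, to -0.075 with no filter beyond 1 count and -0.072 with the default filter of Sleuth.

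The share of transcripts called rose with the level, from 16.3% below 1 CPM to 39.0, 59.1, 78.0 and 88.9% in the classes above. The precision differed as well, and the median standard error of the log2 fold change was 0.732 below 1 CPM, 0.211 between 1 and 10 CPM, 0.0750 between 10 and 100 CPM, 0.0579 between 100 and 1000 CPM and 0.0825 at 1000 CPM or more. The smallest log2 fold change among the calls below 1 CPM was 0.56 in size. In points of all counts, the classes at 100 to 1000 CPM and at 1000 CPM or more changed by -7.66 and -6.16 points through called falls and by 7.12 and 3.996 points through called rises. The class at 10 to 100 CPM gained more than it lost (4.14 and -3.13 points), and below 1 CPM the sums were 0.0163 and -0.0111 points. As a whole, transcripts at 1000 CPM or more went from 21.95% of counts (range 20.9 to 22.8%) to 19.9% (range 18.5 to 22.5%), so the groups overlapped. Those at 10 to 100 CPM went from 33.8% (range 33.02 to 34.36%) to 35.7% (range 34.40 to 36.29%).

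**Figure D4:**
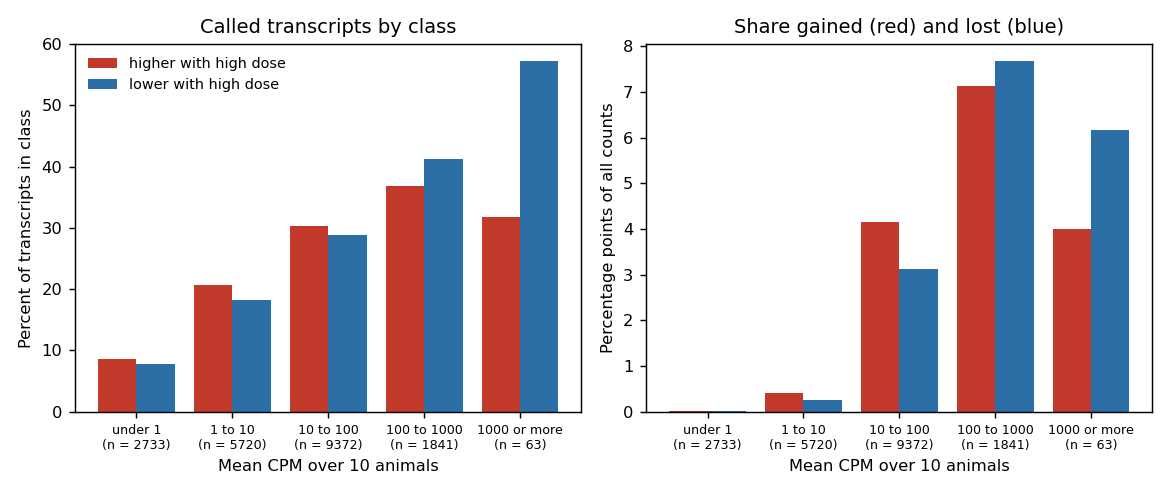
Bars give, for 5 classes of mean CPM (horizontal, with the number of transcripts), the percent of transcripts called higher (red) or lower (blue) with the high dose on the left, and the percentage points of all counts gained (red) or lost (blue) through called transcripts on the right. Falls pass rises in the classes from 100 CPM on, 759 against 677 and 36 against 20.

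Transcript length, which the comparison did not use, went with small differences in direction. In 4 equal classes of effective length, from the shortest to the longest, 46.0, 50.4, 51.0 and 49.3% of transcripts were called. The shortest class had 1273 rises and 996 falls and a median log2 fold change of 0.03, and the longest had 1043 rises and 1387 falls and a median of -0.05. By animal, the median log2 difference from the vehicle mean in the shortest class was 0.028 to 0.065 with the high dose and -0.0068 to 0.022 with vehicle. In the longest class it was -0.052 to -0.0093 with the high dose and -0.014 to 0.020 with vehicle, so the groups overlapped there. The mean level also differed, with a median log2 CPM of 2.83 in the shortest class and 4.64 in the longest, and its part in this shift was not tested.

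The leading rises and falls were taken from calls whose groups did not overlap and whose mean log2 CPM reached 1 (3331 rises, or 16.9% of the transcripts tested, and 2782 falls, or 14.1%). The rises ranked 3 to 12 by log2 fold change ran from 6.84 to 5.77, and the next was at 5.47. These 10 transcripts were at or below 1 CPM in every vehicle animal except ENSCPOT00000010651.3, and their means with the high dose ran from 4.22 to 170.5 CPM. ENSCPOT00000010651.3 was the most abundant of them with the high dose and had the smallest standard error of the 10. It was at 3.91, 1.98, 1.76, 2.82 and 4.55 CPM in vehicle animals 43 to 47 and at 157, 169.6, 147, 185 and 194 CPM in high-dose animals 53 to 57, a log2 fold change of 5.83 (SE 0.228, adjusted p = 7.5e-08 in edgeR). The readable part of the supplement pairs it with the guinea pig gene ENSCPOG00000010556 and the rat NCBI gene 499991. ENSCPOT00000036568.1 was at 0.526, 0.0638, 0.176, 0.0841 and 0.229 CPM with vehicle and at 19.8, 40.3, 25.5, 20.4 and 18.3 CPM with the high dose (log2 fold change 6.83, SE 0.417, adjusted p = 1.3e-06). ENSCPOT00000043375.1 was at 0.113, 0.128, 0.106, 0.210 and 0.191 CPM with vehicle and at 19.0, 17.5, 11.0, 29.5 and 8.90 CPM with the high dose (log2 fold change 6.82, SE 0.429, adjusted p = 1.3e-06). All high-dose animals lay far above all vehicle animals in both. ENSCPOT00000043297.1 went from 0.451, 0.0638, 0.387, 0.589 and 0.382 CPM to 20.5, 22.5, 15.7, 28.2 and 15.4 CPM, a log2 fold change of 5.79 (SE 0.347). ENSCPOT00000032308.1 went from 0.150, 0.287, 0.317, 0.294 and 0.344 CPM to 12.3, 28.7, 11.3, 15.5 and 9.63 CPM, a log2 fold change of 5.77 (SE 0.382). The adjusted p of these was 1.2e-06 and 1.7e-06, respectively.

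The other 5 rises had larger standard errors, from 0.547 to 0.997. ENSCPOT00000003543.3 was at 0.150, 0.574, 0.281, 0.210 and 0.688 CPM in the vehicle animals and at 9.70, 45.3, 22.4, 36.9 and 6.54 CPM in the high-dose animals (log2 fold change 5.95, SE 0.677, adjusted p = 4.5e-05 in edgeR). Its high-dose animals fell into a wide range, with animal 54 highest and animal 57 lowest. ENSCPOT00000013534.3 had the largest fitted change of the 10 (6.84, SE 0.997, adjusted p = 2.5e-04) and the least certain one. It was at 0, 0, 0.106, 0 and 0.153 CPM in the vehicle animals and at 0.491, 11.6, 4.96, 7.37 and 7.74 CPM in the high-dose animals, of which animal 53 was nearest to the vehicle level. Without vehicle animal 47, its log2 fold change was 7.67, and that of ENSCPOT00000036568.1 was 7.45 without vehicle animal 43. ENSCPOT00000013315.3 had 0 to 0.229 CPM with vehicle and 3.64 to 16.3 CPM with the high dose, ENSCPOT00000003092.3 had 0.0376 to 0.168 and 2.86 to 10.02 CPM, and ENSCPOT00000038410.1 had 0 to 0.115 and 2.05 to 7.59 CPM. Animal 54 was the highest of the high-dose animals in 7 of the 10 rises, and animal 57 was the lowest in 8.

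The falls ranked 3 to 12 by the same rule ran from -6.79 to -5.26, and the next was at -5.16. Their means with vehicle ran from 3.77 to 525 CPM. ENSCPOT00000025569.2 was at 641, 447, 552, 511 and 473 CPM in vehicle animals 43 to 47 and at 6.59, 3.55, 2.55, 3.96 and 7.23 CPM in high-dose animals 53 to 57, a log2 fold change of -6.79 (SE 0.276, adjusted p = 1.0e-07 in edgeR). ENSCPOT00000030849.1 was at 229.8, 253, 271, 237 and 184 CPM with vehicle and at 8.22, 2.89, 4.31, 5.77 and 9.83 CPM with the high dose (log2 fold change -5.26, SE 0.287, adjusted p = 6.1e-07). In both, each high-dose animal kept a low but clearly counted level. ENSCPOT00000022092.2 went from 50.9, 34.4, 39.2, 44.1 and 38.0 CPM to 0.721, 0.298, 0.272, 0.444 and 0.851 CPM (log2 fold change -6.33, SE 0.241, adjusted p = 7.0e-08). ENSCPOT00000005021.3 went from 40.2, 39.0, 48.6, 21.1 and 30.8 CPM to 0.819, 0.199, 0.713, 0.717 and 2.36 CPM, with high-dose animal 57 above the others (log2 fold change -5.26, SE 0.443, and -5.87 without that animal). ENSCPOT00000039883.1 was at 64.2, 43.4, 63.3, 50.6 and 47.6 CPM with vehicle. With the high dose it was at 0 in 4 animals and at 5.54 CPM in animal 54. Its log2 fold change of -5.57 (SE 0.915) thus rests on 1 animal and was -13.6 without it, a fitted value against 0 counts.

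The remaining 5 falls were of lower level. ENSCPOT00000000511.3 had 12.4, 7.88, 12.1, 6.81 and 15.4 CPM with vehicle and 0.262, 0.0332, 0.136, 0.239 and 0.503 CPM with the high dose (log2 fold change -5.55, SE 0.452, adjusted p = 5.3e-06 in edgeR). ENSCPOT00000021729.2 had 58.4, 8.003, 13.6, 17.0 and 23.3 CPM with vehicle, a range set by animal 43, and 0.524, 0.265, 0.238, 0.444 and 0.348 CPM with the high dose (log2 fold change -6.03, or -5.40 without animal 43). ENSCPOT00000006339.3 lay between 2.74 and 17.7 CPM with vehicle and between 0 and 0.262 CPM with the high dose (log2 fold change -6.56, or -7.51 without high-dose animal 53). ENSCPOT00000014852.3 lay between 2.07 and 5.09 CPM with vehicle and between 0 and 0.170 CPM with the high dose, with 3 high-dose animals at 0 (log2 fold change -5.98, or -6.94 without high-dose animal 55). ENSCPOT00000044132.1 lay between 2.53 and 6.98 CPM with vehicle and between 0 and 0.205 CPM with the high dose (log2 fold change -5.68, adjusted p = 2.2e-05). Animal 57 kept the highest level of the high-dose animals in 5 of the 10 falls. No overlap was a condition for naming the 20 transcripts and is not a separate result.

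**Figure D5:**
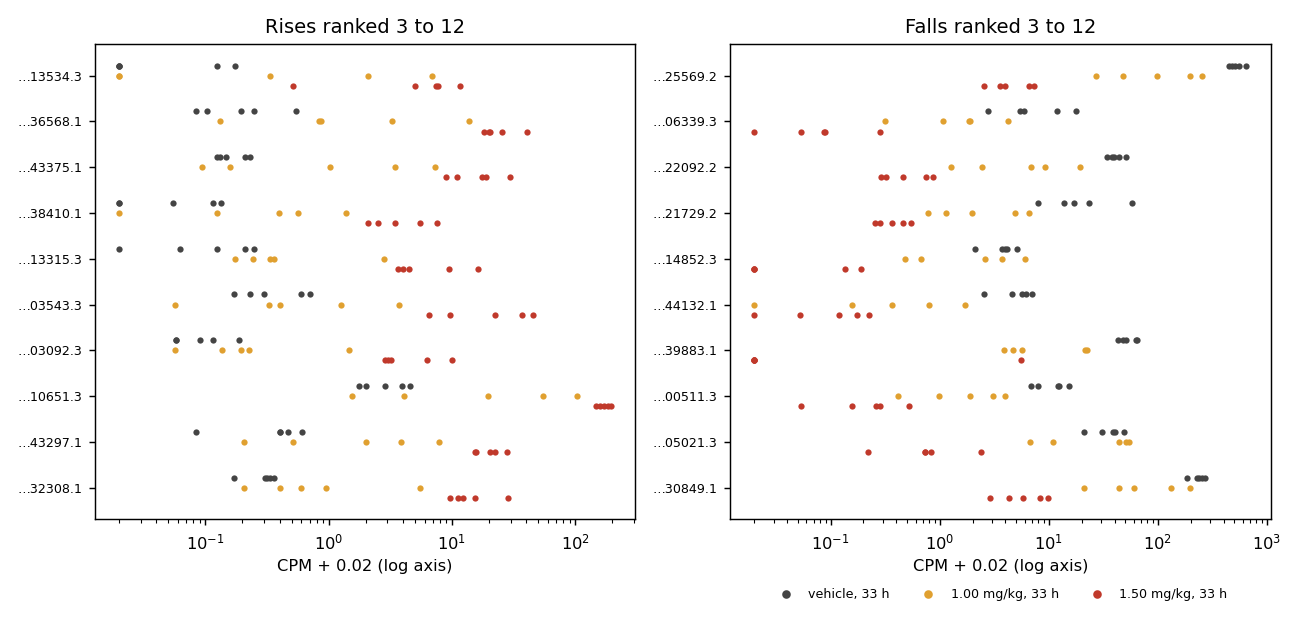
Points give the level of the rises (left) and falls (right) ranked 3 to 12 in each of 15 animals of 33 h, as CPM with 0.02 added on a log axis, with vehicle in grey, the low dose in orange and the high dose in red, and identifiers cut to their last digits. Red and grey points do not overlap in any of the 20 rows, and the low-dose points are spread widely, from the grey points toward the red ones.

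A further set of transcripts was absent from one group, with at most 3 counts in every library of it and more than 3 in every library of the other. There were 28 such transcripts at or under this floor with vehicle, of which 4 had no count in any vehicle animal, and 23 with the high dose, of which 3 had no count in any high-dose animal. Fold changes of these are lower bounds against 3 counts per library and cover counting error only. Of the 28, ENSCPOT00000046066.1 and ENSCPOT00000038410.1 had the highest means with the high dose. ENSCPOT00000038410.1 was at 0, 0.0957, 0.0352, 0 and 0.115 CPM in the vehicle animals and at 2.49, 7.59, 3.46, 5.49 and 2.05 CPM in the high-dose animals, at least 38.0-fold higher. ENSCPOT00000046066.1 was uneven, at 7.73, 0.133, 20.6, 5.15 and 0.193 CPM in high-dose animals 53 to 57, and at least 60.9-fold higher. Without animal 55 the bound was at least 29.8-fold. With the 9 h vehicle animals added to the controls, its change was not called (log2 fold change 0.87, adjusted p = 0.66 in edgeR). Of the 23, ENSCPOT00000041649.1 was at 2.48, 2.04, 3.798, 2.78 and 1.38 CPM in the vehicle animals and at 0.0983, 0, 0, 0 and 0.0774 CPM in the high-dose animals, at least 24.1-fold lower. ENSCPOT00000000758.3 was at 1.77, 1.72, 1.83, 2.02 and 0.535 CPM in the vehicle animals and had no count in any high-dose animal, at least 15.2-fold lower. Levels were low in this set throughout, with a highest mean of 6.76 CPM.

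The named transcripts were then set beside the groups most like the high-dose animals of 33 h, which received less mercuric chloride (low dose, 33 h) or were sampled earlier (high dose, 9 h). At 33 h, 28.7% of transcripts tested differed between the doses (edgeR's quasi-likelihood test), and of the named ones 9 of 10 rises and 8 of 10 falls did. The 20 were named for extreme values in the same high-dose animals, so a share above the background was favoured by the choice. With the low dose at 33 h, where 0.897% were called against the same vehicle animals, none of the 10 rises and 1 of the 10 falls was called (ENSCPOT00000000511.3, log2 fold change -2.43, adjusted p = 0.097). The fitted log2 fold changes were nonetheless 1.54 to 5.05 for the rises and -3.14 to -0.13 for the falls, with the controls shared between both doses. The low-dose animals differed widely among themselves. ENSCPOT00000010651.3 was at 104, 1.51, 4.10, 19.6 and 54.3 CPM in low-dose animals 48 to 52, so that animal 48 came close to the high-dose animals and animal 49 was at the vehicle level. ENSCPOT00000047573.1 was at 336, 3883, 2638, 2008 and 857 CPM in the same animals, again with animal 48 nearest to the high-dose level and animal 49 at the vehicle level.

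At 9 h, where the high dose changed 32.8% of transcripts, 9 of the 10 falls and 4 of the 10 rises were called. All 10 falls and all 10 rises had the same direction as at 33 h. The 9 h vehicle means were 0.017 to 1.76 CPM for the rises and 3.39 to 656 CPM for the falls, so the 2 counts differ in precision. Between 33 h and 9 h, the high-dose effect differed for 20.5% of transcripts tested (edgeR contrast over 4 groups), and for 8 of the 10 rises and 9 of the 10 falls. These were named for the 33 h change that enters this contrast, so a share above the background was favoured by the choice. ENSCPOT00000036568.1 was the clearest case among the rises, with a log2 fold change of 6.83 at 33 h and 0.30 at 9 h (difference 6.54, SE 0.587, adjusted p = 2.9e-06). Its median at 9 h was 0.311 CPM with the high dose and 0.241 CPM with vehicle. Among the falls, ENSCPOT00000005021.3 changed by -5.26 at 33 h and -0.61 at 9 h (difference -4.65, SE 0.518, adjusted p = 1.9e-05). ENSCPOT00000022092.2 was further along at 9 h, with a median of 0.937 CPM against 58.3 CPM with vehicle (log2 fold change -3.64, adjusted p = 0.013). Its high-dose animals of 9 h were uneven, from 0.469 to 15.2 CPM. Of the 6 leading losses 3 were called at 9 h, and of the 6 leading gains 5, among them ENSCPOT00000025542.2 in the opposite direction (-1.95, adjusted p = 0.046). The vehicle animals of 9 h differed widely in it, from 16156 to 167256 CPM (median 19590). With the high dose at 9 h it was at 12150 to 16396 CPM (median 13607), so the groups overlapped.

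The whole set of 4753 falls was also followed in the other groups, as a description. These transcripts held 50.6 ± 1.83% of counts in the vehicle animals of 9 h, 45.0 ± 3.43% after the low dose and 42.6 ± 4.11% after the high dose of that time (SD, n = 5 each). In the low-dose animals of 33 h they held 44.9 ± 4.29% (SD, n = 5), between 40.3 and 50.9%. The highest high-dose animal at 33 h, at 36.3%, lay below the lowest animal of the low dose at 33 h and below the lowest of the high dose at 9 h, at 39.1%. The 4948 rises held 27.6 ± 3.19% with vehicle and 32.9 ± 3.26% after the high dose at 9 h, and 31.4 ± 3.47% in the low-dose animals of 33 h (SD, n = 5 each), against 41.6% with the high dose at 33 h. Without ENSCPOT00000025542.2, which held up to 13.7% of counts in a 9 h vehicle animal, the rises held 22.8 ± 2.15% with vehicle and 31.4 ± 3.23% after the high dose at 9 h (SD, n = 5 each). The sets were chosen on the 33 h vehicle and high-dose animals, which places those groups apart by construction.

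The size of the difference from vehicle was also taken for each high-dose animal, over transcripts called on these same animals, a choice that favours transcripts moving alike in all 5. Over the 4554 called rises whose mean log2 CPM reached 1, the median log2 difference from the vehicle mean was 0.41, 0.46, 0.44, 0.44 and 0.37 in animals 53 to 57, and over the 4388 such falls it was -0.44, -0.49, -0.45, -0.46 and -0.38. Animal 54 was farthest from vehicle and animal 57 nearest in both directions. The median spread within the group was not larger than among the vehicle animals. Over the 15783 transcripts whose mean log2 CPM reached 1, the median SD of log2 CPM was 0.132 with the high dose and 0.142 with vehicle, and it was larger with the high dose for 47.0% of transcripts. Among the called falls the median SD was 0.140 with the high dose and 0.134 with vehicle, and among the called rises it was 0.111 and 0.125.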

How the data were processed

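Kidney RNA of 30 guinea pigs was measured, of which the 10 animals of this comparison were grouped by the dose and time in their labels. The authors pseudo-aligned 75-bp paired reads of stranded poly-A libraries with Kallisto (version 0.42.4, per the submitters' processing notes) to the Ensembl guinea pig transcriptome, whose release is not given in the sources used here. They deposited estimated counts, which are not normalized, and TPM values, which are scaled for effective length, for 25824 transcripts. Kallisto divides reads among similar transcripts, so counts of close paralogs and isoforms are uncertain. Effective lengths were read from the deposited column in place of the planned ratio of counts to TPM.

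Counts were made whole by rounding and tested for 19729 transcripts with edgeR 4.0.16 in R 4.3.3 (filterByExpr over 6 groups, TMM, glmQLFit, glmQLFTest). Each fit held the groups compared and no others. Calls were made at 0.1 after Benjamini-Hochberg correction, as in the study, whose own test (Sleuth) was not run. CPM are rounded counts over the TMM-scaled library total, with a prior count of 2 on the log2 scale. Shares are percents of all estimated counts. The fitting was tested on simulated data in which far fewer transcripts changed than were called here. It was thus not checked at this extent of change. Alternatives were DESeq2 1.42.0, limma 3.58.1, RLE scaling, other filters and thresholds, TPM, other controls and leaving out each animal.

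Named were the rises and falls ranked 3 to 12 by log2 fold change among calls whose groups did not overlap and whose mean log2 CPM reached 1, the 6 called transcripts with the largest loss and gain of share, and the 2 each way with the highest mean among transcripts absent from one group. The comparison, members and rules were chosen with earlier results of these data known. The reference table (assembly mCavPor4.1) could not be joined to Ensembl identifiers, so no symbols, gene lists, markers or sequences are given, and 2 of the 35 named transcripts were matched to rat genes. The in vitro samples were not analysed here.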

Additional observations from a re-analysis of the deposited data

Results flagged for a closer look

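Of 88 groups of 5 values checked, 5 held an animal far from the others, where 4.4 would be found by chance (1 in 20). ENSCPOT00000006339.3 was at 0.262 CPM in high-dose animal 53 and at 0.0683 CPM in the next. ENSCPOT00000039883.1 was at 5.54 CPM in high-dose animal 54 and at 0 in the other high-dose animals. ENSCPOT00000005021.3 was at 2.36 CPM in high-dose animal 57 and at 0.819 CPM in the next. ENSCPOT00000008570.3 was at 7149.5 CPM in high-dose animal 57 and at 9698 CPM in the next. ENSCPOT00000000758.3 was at 0.535 CPM in vehicle animal 47 and at 1.72 CPM in the next.

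The effect of the high dose differed between 33 h and 9 h for 28 of the 35 named transcripts, against 20.5% of all transcripts tested, by the contrast over 4 groups (edgeR, threshold 0.1 after Benjamini-Hochberg correction). The log2 effect at 33 h minus that at 9 h was above 0 for 13 of them. It was 6.54 for ENSCPOT00000036568.1, 5.10 for ENSCPOT00000038410.1, 4.31 for ENSCPOT00000013315.3, 3.98 for ENSCPOT00000003543.3, 4.69 for ENSCPOT00000003092.3, 3.61 for ENSCPOT00000010651.3, 4.53 for ENSCPOT00000043297.1, 3.21 for ENSCPOT00000032308.1, 2.92 for ENSCPOT00000025542.2, 1.93 for ENSCPOT00000008570.3, 3.02 for ENSCPOT00000019570.2, 0.78 for ENSCPOT00000032213.1 and 8.76 for ENSCPOT00000046066.1. It was below 0 for the other 15, with -4.17 for ENSCPOT00000025569.2, -2.59 for ENSCPOT00000006339.3, -2.68 for ENSCPOT00000022092.2, -2.61 for ENSCPOT00000021729.2, -2.86 for ENSCPOT00000044132.1, -3.76 for ENSCPOT00000039883.1, -3.57 for ENSCPOT00000000511.3, -4.65 for ENSCPOT00000005021.3, -3.91 for ENSCPOT00000030849.1, -1.60 for ENSCPOT00000015258.3, -0.47 for ENSCPOT00000017568.1, -3.70 for ENSCPOT00000047573.1, -0.82 for ENSCPOT00000006677.3, -3.52 for ENSCPOT00000041649.1 and -6.15 for ENSCPOT00000000758.3. The values of ENSCPOT00000046066.1, ENSCPOT00000038410.1, ENSCPOT00000041649.1 and ENSCPOT00000000758.3 are fitted against a 33 h group with at most 3 counts in every library. They depend on the prior count, are no bounds, and their sizes should not be read as measured differences. The value of ENSCPOT00000025542.2 rests in part on the vehicle animals of 9 h, which ranged from 16156 to 167256 CPM. The transcripts were named for large changes at 33 h, so differences away from 9 h in the same direction were favoured by the choice.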

How the results depend on the processing

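The calls between high dose and vehicle numbered 9077 to 9506 when each animal was left out, 9875 with DESeq2, 9870 with limma, 9710 with RLE scaling and 10754 with all 10 vehicle animals as controls. The points lost by called falls ranged from -17.9 to -16.7 and those gained by called rises from 15.2 to 16.3 without single animals, and the gain was 17.6 over all transcripts that were higher with the high dose, called or not. Below 1 CPM, the percent called was 9.93 with no filter beyond 1 count and 9.70 at a threshold of 0.05. Changes of at least 8-fold numbered 175 rises and 145 falls as reported, 263 and 230 with no such filter, and 100 rises under the default filter of Sleuth.

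The tests on abundant transcripts depended most on the setting. With TPM in place of counts, the difference was -2.70 points for the first 100, -1.57 points for the first 1000 (adjusted p = 0.095 for each, exact permutation test) and -1.20 transcripts for 50% of the total, which turned the direction (adjusted p = 0.94). The cause was not tested beyond the change of scale. Without single animals, the first 10 differed by -2.36 to -1.33 points, past 0.05 only without high-dose animal 53 (-2.36), and the number of transcripts for 50% by 101 to 141, which missed 0.05 (adjusted p = 0.063, exact permutation test) without any one of vehicle animals 44, 45 and 46 or high-dose animals 54, 55, 56 and 57. With 4 animals against 5 the exact test has fewer splits.

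Of 627 refits of the 35 named transcripts, 625 kept direction and side of the threshold. With the 9 h vehicle animals added as controls, ENSCPOT00000025542.2 turned to -0.33 (adjusted p = 0.71 from edgeR) and ENSCPOT00000046066.1 was at 0.87 (adjusted p = 0.66 from edgeR). The cause was not tested. The calls between the high and the low dose at 33 h, those of the contrast between 33 h and 9 h, and the counts of absent transcripts kept within 1.5 times in the alternatives run. For these, the alternatives were chosen after seeing the data. The comparisons of the low dose with vehicle at 33 h and of the high dose with vehicle at 9 h had no alternative run. No paired analysis was possible because the animal numbers are not shared between groups. The median standard error of the log2 fold change was largest below 1 CPM (0.732), and the part of depth in this was not tested.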
